A study of Arabidopsis thaliana with 15 samples.

Results

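Roots harvested 8 h after nitrate supply were compared with roots harvested 1.5 h after it in Arabidopsis thaliana (thale cress). The members were chosen by sample title, 3 samples at 8 h and 3 at 1.5 h, which are 6 of the 15 samples of the series. Plants of every group were Columbia-0, raised hydroponically to growth stage 5.10 and then left without nitrogen for 26 h. The 5 groups were nitrate 8 h, nitrate 1.5 h, ammonium 8 h, ammonium 1.5 h (each ion at 1 mM) and roots taken just before supply, in 3 biological replicates. A sample was a pool of roots from 5 plants or more, and its RNA was read on 1 Affymetrix ATH1 array of 22746 probe sets. The salt that brought each ion is not given in the sources used here. Roots kept without nitrogen to the later times are not among the samples used here, so the hour of harvest and the time since transfer move with the comparison and cannot be told apart from nitrate. In such bulk tissue, fewer cells of a type and less RNA per cell cannot be told apart either.

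Nitrate is both the main nitrogen source of most plants and a signal. Roots take it up through transporters of the NRT1 and NRT2 families, reduce it to nitrite and ammonium, and build the ammonium into amino acids with carbon skeletons from the tricarboxylic acid cycle and reducing power from the pentose phosphate pathway. Within minutes nitrate switches on a set of genes that includes repressors of the GARP family (HHO1 and its relatives), which in turn restrain genes of nitrogen starvation.

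Levels are RMA expression values on the log2 scale as deposited, so a difference of 1 is a 2-fold change. A difference is given ± its standard error from a limma fit of all 5 groups, and a probe set was called where its p, adjusted over all 22746 probe sets, fell below 0.05. Mean levels are given ± SD (n = 3 arrays). The values carry no detection call, and a group mean under 5 log2 was not taken as shown to be above background, so no fold is given there, and a difference that involves such a mean is one between array values, not a fold change in transcript. Precision is limited by the number of arrays, and the standard error of a difference had a median of 0.0921 log2. Within groups, pairs of replicates had r between 0.9935 and 0.9978 over the probe sets. A list member is termed measured where a probe set was named by that 1 gene in the platform annotation used. Other members may still be on the array, since 8730 probe sets had no listed gene, so list counts are not family sizes. The root marker list had 5 of its 26 loci measured, and its mean level was 10.58 to 10.59 at 8 h, against 10.33 to 10.53 at 1.5 h of nitrate. PYK10, a beta-glucosidase abundant in roots, was at 12.88, 12.92 and 12.81 at 8 h, against 12.49, 12.50 and 12.46 at 1.5 h. Of 4 measured markers of green shoot tissue 0 were called by limma (1 at an unadjusted p under 0.05), their mean level was 5.02 to 5.09 at 8 h and 4.995 to 5.13 at 1.5 h, and SBPASE and PRK averaged under 5 log2.

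Between 8 h and 1.5 h of nitrate, 2697 probe sets (11.9%) were called, 1322 higher (5.81%) and 1375 lower (6.05%) at 8 h. Of these, 1438 carried the name of 1 gene, 728 of them higher and 710 lower. At least 2-fold changes were fewer, 90 higher and 147 lower, and in 34 of those 237 the lower time averaged under 5 log2. The 3 values of one time lay wholly apart from those of the other in 6787 probe sets (29.8%), and in 2668 of the 2697 called. The median difference over all probe sets was 0.02 log2, and that of the called ones was 0.44 log2 in size.

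The called probe sets were sorted by what nitrate had done by 1.5 h relative to the roots before supply, where 1358 were called higher (5.97%) and 1659 lower (7.29%). The largest classes were late changes, which were not called at 1.5 h: 848 late rises and 867 late falls. A further 191 had risen by 1.5 h and rose on (continuing rises), and 171 had fallen and fell on (continuing falls). Against these stood 337 fading rises, higher at 1.5 h than before supply and lower at 8 h than at 1.5 h, and 283 recovering falls with the opposite course. The 1.5 h samples enter both differences with opposite signs, so these counts are a description. Without nitrate 1.5 h replicate 3 the late rises numbered 562 and the recovering falls 183, and without nitrate 1.5 h replicate 2 the recovering falls numbered 159 and the continuing falls 113.

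At 8 h of nitrate 2031 probe sets (8.93%) were called above and 2658 (11.7%) below the roots before supply. Of the 337 fading rises, 104 were still called above the level before supply at 8 h, 43 were called below it and 190 were not called. Of the 283 recovering falls, 28 were called above that level, 46 below it and 209 were not called. The late rises comprised 548 called above it and 300 not called, and the late falls 679 called below it and 188 not called.

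**Figure D1:**
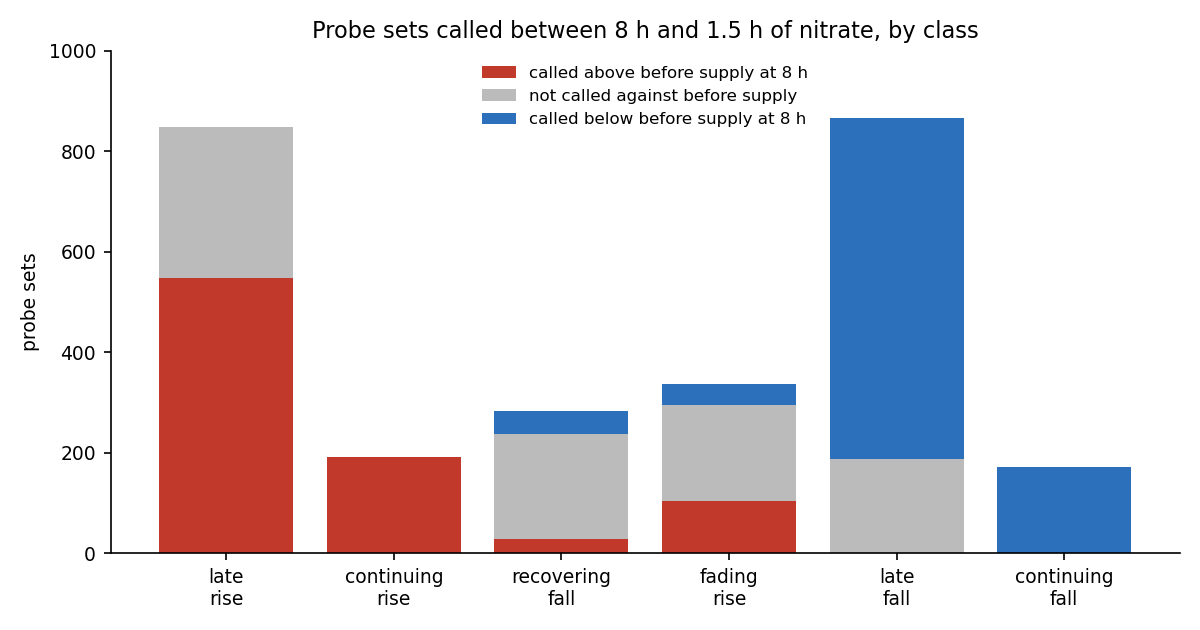
Number of probe sets called between 8 h and 1.5 h of nitrate in each of 6 classes, on the y axis, with colours for the call at 8 h against the roots before supply. Late rises (848) and late falls (867) are the tallest bars, and most of the recovering falls (209 of 283) and fading rises (190 of 337) were not called against the roots before supply at 8 h.

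Among late rises, PDF2.1, of the plant defensin family, was at 7.31, 7.27 and 7.34 at 8 h, against 4.18, 4.21 and 3.79 at 1.5 h (3.25 ± 0.17, adjusted p = 8.01e-09). COR27, a cold-regulated gene that acts on the circadian clock, was at 6.76, 6.70 and 6.43 at 8 h, against 3.78, 3.67 and 3.73 at 1.5 h (2.90 ± 0.13, adjusted p = 1.47e-09). Both were near the bottom of the scale at 1.5 h, under 5 log2, and lay more than 2 log2 higher in all 3 samples at 8 h. AT4G33980, the close relative of COR27 known as COR28, had already risen by 1.5 h, with means of 5.13 before supply, 6.42 at 1.5 h and 7.67 at 8 h. Its further difference was 1.25 ± 0.12, adjusted p = 5.14e-06. GI, a clock component, was not called (-0.13 ± 0.08, adjusted p = 0.356). The list of clock genes and clock outputs had 4 of its 36 loci measured. The 2 that rose were COR27 and AT4G33980, and 0 fell, where 5.81% of all probe sets rose. The median of 0.58 log2 (0.02 log2 over all probe sets) lies between these 2 and the 2 not called, GI and AT1G22750. The place of AT1G22750 in the list is doubtful, and the counts do not describe the other listed loci.

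Other late rises, by definition not called at 1.5 h, began from a range of levels. AT1G52700 was at 7.68, 7.50 and 7.25 at 8 h, against 5.30, 5.17 and 5.01 at 1.5 h (2.32 ± 0.17, adjusted p = 3.41e-07), which was 4.98-fold higher at 8 h. AT4G32340 was at 6.99, 6.96 and 7.18 at 8 h, against 5.10, 4.86 and 5.14 at 1.5 h (2.01 ± 0.16, adjusted p = 5.02e-07). AT4G16260, of the family of beta-1,3-glucanases, was at 10.74, 9.77 and 9.73 at 8 h, against 8.62, 8.86 and 7.46 at 1.5 h (1.77 ± 0.38, adjusted p = 0.00537). The 3 genes did not overlap between the times, which was a condition of their choice, though AT4G16260 varied by more than 1 log2 among the samples at 1.5 h. AT4G16000 and AT2G43535 differed by 1.41 and 1.21 (adjusted p = 0.000227 and 9.35e-06). AT4G27654 (6.55, 4.93 and 3.78 at 8 h, against 3.37, 3.42 and 3.48 at 1.5 h) and AT1G47400, of the IRON MAN family of iron-response peptides (6.61, 7.003 and 6.87 at 8 h, against 5.55, 5.59 and 5.67 at 1.5 h), were called with adjusted p = 0.0279 and 0.0226. In AT4G27654 the rise was far from even, with replicate 1 at 8 h more than 2 log2 above replicate 3. AT4G27654 kept its call in 6 of 13 alternative settings (adjusted p 0.00096 to 0.101) and lost it without 8 h replicates 1 or 2 or 1.5 h replicates 1, 2 or 3 and with only the groups compared in the fit or a variance trend. AT1G47400 kept its call in 8 of 14 alternative settings (adjusted p 0.000167 to 0.0828) and lost it without 8 h replicates 2 or 3 or 1.5 h replicates 1, 2 or 3 and with a variance trend.

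Continuing rises climbed in both intervals. AT3G46880 averaged 4.30 before supply, 6.496 at 1.5 h and 8.50 at 8 h. At the times compared it was at 8.34, 8.57 and 8.60 at 8 h, against 6.28, 6.66 and 6.56 at 1.5 h (2.01 ± 0.18, adjusted p = 2.19e-06). AT1G49500 averaged 5.51 before supply, 8.26 at 1.5 h and 9.88 at 8 h (1.63 ± 0.12, adjusted p = 4.18e-07 between the later times). AT5G01740 averaged 6.70 before supply, 9.30 at 1.5 h and 10.68 at 8 h (1.37 ± 0.13, adjusted p = 4.43e-06). AT3G53770 had most of its rise behind it at 1.5 h, with 4.80 before supply, 7.71 at 1.5 h and 8.48 at 8 h (0.77 ± 0.09, adjusted p = 2.64e-05). Smaller early steps were seen for AT1G56300, AT1G33340 and AT1G11210, which rose by 1.81, 1.77 and 1.73 between the later times, against 0.43, 0.93 and 0.46 in the first interval. AT1G70810 and AT5G04730 differed by 1.48 and 1.402 (adjusted p = 3.65e-06 and 6.39e-07).

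Recovering falls dipped at 1.5 h. AT5G14650 was at 8.35, 9.01 and 8.61 at 8 h, against 6.09, 6.42 and 6.29 at 1.5 h (2.39 ± 0.17, adjusted p = 2.09e-07). Its mean before supply was 7.70, so it ended above its starting level. XTH16, of the family of enzymes that cut and rejoin xyloglucan in cell walls, averaged 9.56 before supply, 8.20 at 1.5 h and 9.12 at 8 h (0.92 ± 0.08, adjusted p = 3.04e-06) and stayed below its start. AT3G53820, AT2G41810, AT5G44380 and AT4G31875 rose between the later times by 1.33, 1.18, 0.96 and 0.95, after differences of -0.69, -1.05, -0.33 and -0.91 in the first interval.

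NRT2.5 encodes a nitrate transporter of high affinity that starved roots make, and it had the largest fall of all called probe sets. It was at 6.03, 5.22 and 5.46 at 8 h, against 11.04, 10.98 and 11.21 at 1.5 h (-5.51 ± 0.16, adjusted p = 1e-11), which was 45.4-fold lower at 8 h. The early fall was small (-0.54 ± 0.16, adjusted p = 0.033), so nearly the whole loss came between 1.5 h and 8 h. OCT1, an organic cation and carnitine transporter, was at 4.79, 4.48 and 3.74 at 8 h, against 8.09, 7.35 and 7.74 at 1.5 h (-3.39 ± 0.22, adjusted p = 6.51e-08) and had already fallen by 1.5 h, with means of 10.07 before supply, 7.72 at 1.5 h and 4.34 at 8 h. AT1G22160 averaged 9.79 before supply, 8.14 at 1.5 h and 6.12 at 8 h (-2.01 ± 0.09, adjusted p = 1.4e-09), and AT1G64590 averaged 12.24 before supply, 9.86 at 1.5 h and 8.18 at 8 h (-1.68 ± 0.15, adjusted p = 2.49e-06). Both fell in each interval, and their values at the later times did not overlap, which was a condition of their choice. AT1G11700 and AT1G78990 fell by smaller amounts, with differences of -1.24 and -1.09 (adjusted p = 1.61e-07 and 4.2e-07).

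Among late falls, AT5G04120 was at 7.51, 5.35 and 4.75 at 8 h, against 10.56, 10.66 and 10.83 at 1.5 h (-4.81 ± 0.49, adjusted p = 8.17e-06), and its samples at 8 h spread over more than 2 log2 while remaining below all samples at 1.5 h. AT5G15950, which encodes an S-adenosylmethionine decarboxylase of polyamine synthesis, was at 6.33, 6.52 and 6.16 at 8 h, against 8.70, 8.75 and 9.03 at 1.5 h (-2.49 ± 0.12, adjusted p = 2.49e-09), 5.61-fold lower at 8 h. STR18, a sulfurtransferase, was at 8.61, 7.56 and 7.67 at 8 h, against 10.30, 10.05 and 10.04 at 1.5 h (-2.18 ± 0.21, adjusted p = 4.4e-06). All 3 samples at 8 h lay below all 3 at 1.5 h for each of these genes, which was a condition of their choice. AT5G38910 was at 6.67, 5.81 and 6.26 at 8 h, against 7.79, 8.79 and 7.57 at 1.5 h (-1.81 ± 0.36, adjusted p = 0.00336). AT1G04330 averaged 4.30 ± 0.15 at 8 h and 6.05 ± 0.19 at 1.5 h (adjusted p = 5.69e-08). AT3G53980, AT1G24575, AT4G36610 and AT5G08250 fell, with differences of -1.57, -1.53, -1.53 and -1.58 (adjusted p = 1.12e-08, 1.05e-08, 3.99e-08 and 0.000624). AT3G55790 averaged 4.23 ± 0.46 at 8 h and 6.28 ± 0.78 at 1.5 h (-2.06 ± 0.47, adjusted p = 0.00881), with values at 1.5 h that spread over more than 1 log2. AT3G55790 kept its call in 13 of 14 alternative settings (adjusted p 0.00393 to 0.0505) and lost it without 1.5 h replicate 2.

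Fading rises peaked at 1.5 h. LTI30, a dehydrin of cold and drought responses, averaged 8.47 before supply, 11.52 at 1.5 h and 9.11 at 8 h. Between the later times it was at 9.04, 9.07 and 9.23 at 8 h, against 11.42, 11.48 and 11.66 at 1.5 h (-2.41 ± 0.10, adjusted p = 4.86e-10). HYH, a bZIP factor related to the light regulator HY5, averaged 5.17 before supply, 7.24 at 1.5 h and 5.52 at 8 h (-1.73 ± 0.19, adjusted p = 1.89e-05). AT4G18280 averaged 6.33 before supply, 8.29 at 1.5 h and 6.49 at 8 h (-1.81 ± 0.15, adjusted p = 1.08e-06), and AT5G49870 averaged 8.44 before supply, 9.97 at 1.5 h and 8.56 at 8 h (-1.41 ± 0.10, adjusted p = 1.61e-07). At 8 h LTI30 was still 0.64 log2 above the roots before supply, whereas HYH, AT4G18280 and AT5G49870 were not called against them. AT3G16800, of the PP2C phosphatase family, averaged 8.69 before supply, 9.24 at 1.5 h and 7.54 at 8 h (-1.70 ± 0.11, adjusted p = 6.61e-08) and ended below its start. AT3G28510 and AT2G30660 fell, with differences of -1.57 and -1.33 (adjusted p = 0.00523 and 0.00147).

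**Figure D2:**
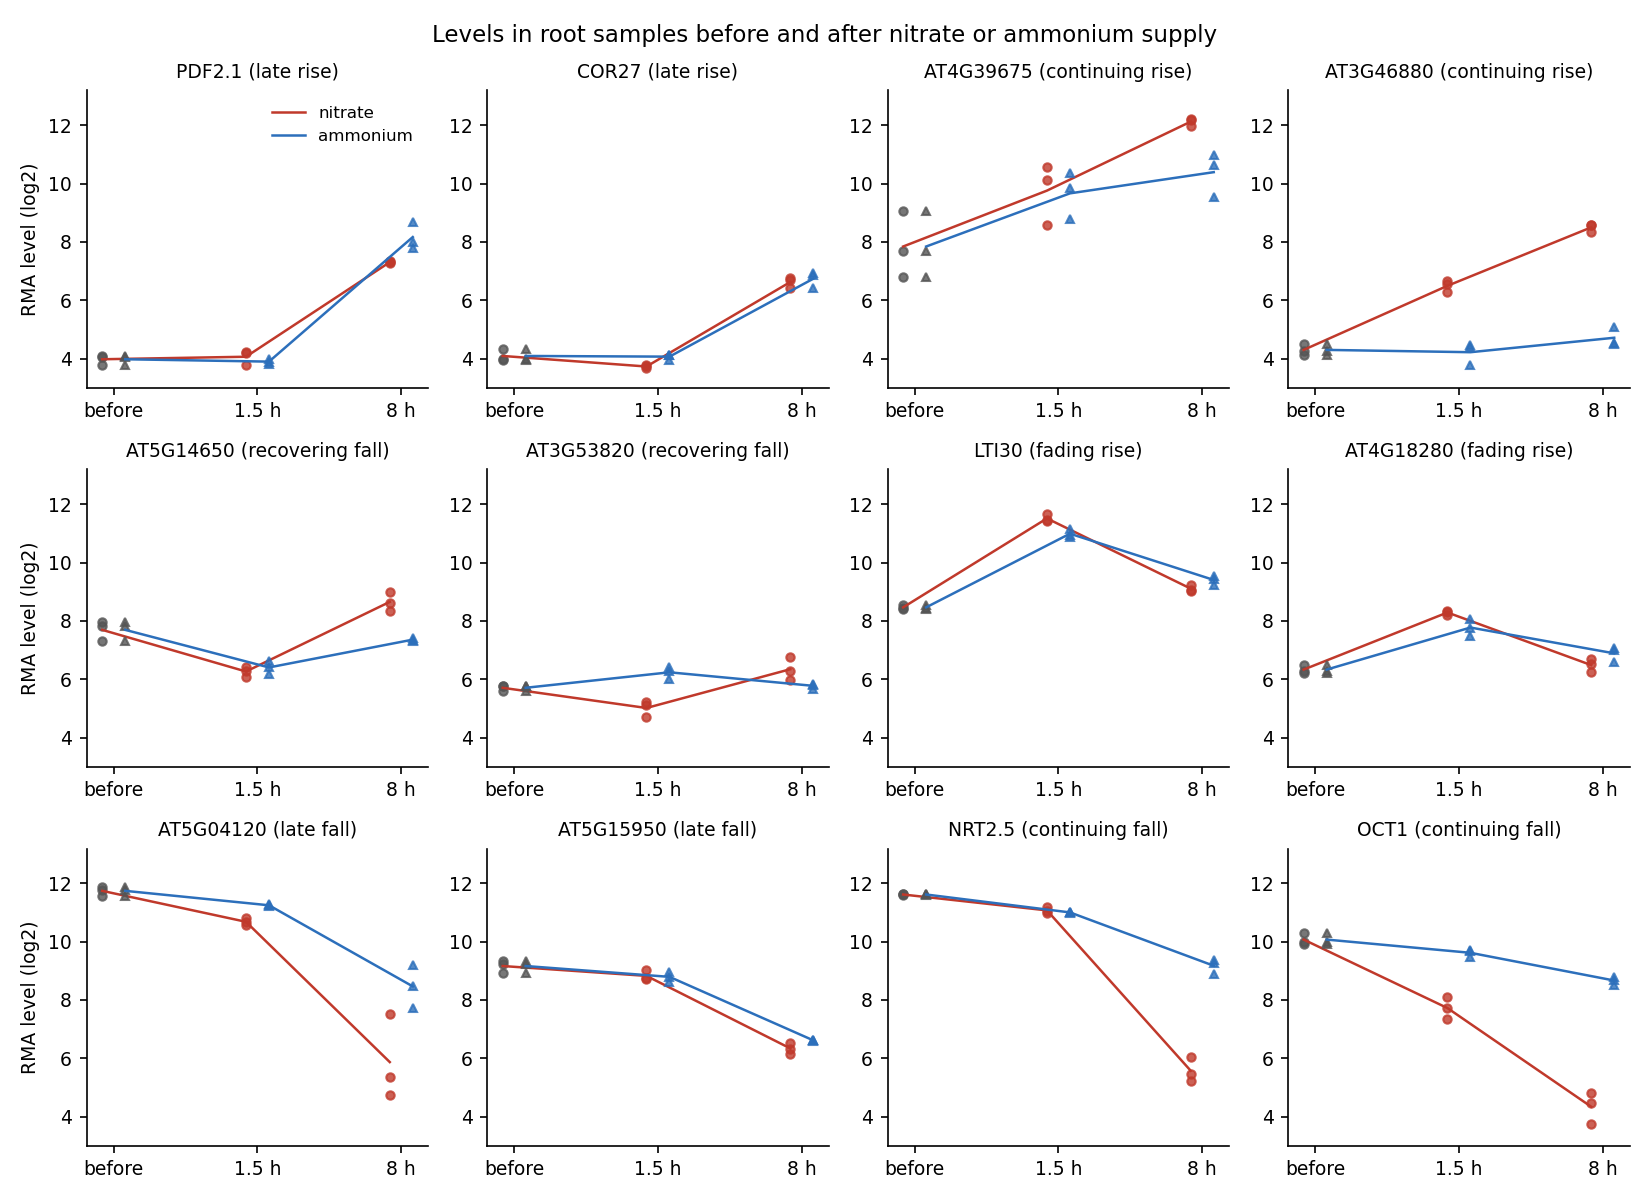
RMA level (log2, y axis) of the 2 named genes with the largest change in each class, in every sample before supply, at 1.5 h and at 8 h (x axis), with circles for nitrate, triangles for ammonium and lines through group means. PDF2.1 and COR27 rise after 1.5 h with both ions, and NRT2.5 ends at 5.57 with nitrate and at 9.18 with ammonium.

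Probe sets without a named gene in the tables used here reached similar sizes. Probe set 257985_at was at 8.77, 8.56 and 8.58 at 8 h, against 4.90, 4.90 and 5.16 at 1.5 h (3.65 ± 0.16, adjusted p = 1.4e-09), and 258629_at was at 9.91, 10.14 and 10.10 at 8 h, against 7.62, 7.43 and 7.86 at 1.5 h (2.41 ± 0.16, adjusted p = 6.93e-08). Among falls, 250665_at was at 5.18, 4.95 and 5.31 at 8 h, against 8.61, 8.65 and 8.68 at 1.5 h (-3.50 ± 0.12, adjusted p = 6.2e-11), and 266720_s_at was at 4.22, 3.78 and 3.76 at 8 h, against 7.08, 7.49 and 7.30 at 1.5 h (-3.37 ± 0.25, adjusted p = 2.68e-07). In all 4 the values of the times were far apart, and a lack of overlap was a condition of their choice.

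In the nitrate and ammonium transport list NRT2.5 fell, 0 of 3 measured members rose, and the median difference was -0.15 log2. Of the NRT1/PTR transporter family, 1 of 11 measured members rose and 1 fell (median 0.07 log2), against 5.81% higher and 6.05% lower over all probe sets. Without 8 h replicate 1, with array weights or with the low-level filter 2 fell. AT1G59740, a fading rise, averaged 7.71 before supply, 8.91 at 1.5 h and 8.32 at 8 h (-0.59 ± 0.12, adjusted p = 0.0033). GTR2, a glucosinolate transporter, averaged 10.34 ± 0.07 at 8 h and 10.10 ± 0.10 at 1.5 h (0.24 ± 0.07, adjusted p = 0.0463). GTR2 kept its call in 8 of 14 alternative settings (adjusted p 0.0161 to 0.19) and lost it without 8 h replicates 2 or 3 or 1.5 h replicates 1 or 3 and with the hypoxia level as covariate or only the groups compared in the fit.

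The list of nitrogen response regulators had 5 of its 35 loci measured, and all 5 are GARP factors. Of these 5, 3 fell and 0 rose (median -0.39 log2), against 6.05% lower over all probe sets. HHO1 averaged 3.82 before supply, 9.32 at 1.5 h and 8.74 at 8 h. At the later times it was at 8.78, 8.72 and 8.72 at 8 h, against 9.31, 9.42 and 9.23 at 1.5 h (-0.58 ± 0.10, adjusted p = 0.00128). Its mean before supply was under 5 log2, so the size of its early rise is not given. HHO2 averaged 6.78 before supply, 7.90 at 1.5 h and 8.04 at 8 h, and its difference between the later times was not called (0.13 ± 0.10, adjusted p = 0.497). HHO3 averaged 6.42 before supply, 8.63 at 1.5 h and 8.72 at 8 h and was not called either (0.09 ± 0.12, adjusted p = 0.722). The relatives AT4G37180 (HHO5) and AT1G49560 (HHO6) were not called at 1.5 h and fell, with differences of -0.86 and -0.39 (adjusted p = 2.06e-05 and 0.0109). AT1G49560 kept its call in 13 of 14 alternative settings (adjusted p 0.00166 to 0.0623) and lost it without 1.5 h replicate 2.

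The pentose phosphate list had 6 measured members. Of these 1 fell and 0 rose (median -0.05 log2), against 6.05% lower and 5.81% higher over all probe sets. PGD3, a 6-phosphogluconate dehydrogenase that supplies reducing power, averaged 9.66 before supply, 12.001 at 1.5 h and 11.47 at 8 h (-0.53 ± 0.07, adjusted p = 9.2e-05). PGD1, of the same family, averaged 10.95 before supply, 12.47 at 1.5 h and 12.35 at 8 h and was not called between the later times (-0.12 ± 0.06, adjusted p = 0.251). Both genes were thus well above the roots before supply at 8 h, by 1.81 and 1.396 log2.

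In the tricarboxylic acid cycle list, 4 of 21 measured members rose and 1 fell (median 0.10 log2). Over all probe sets 5.81% rose and 6.05% fell. SDH1-2, a succinate dehydrogenase subunit, was at 8.49, 8.71 and 8.64 at 8 h, against 7.77, 7.80 and 7.68 at 1.5 h (0.86 ± 0.08, adjusted p = 1.85e-06). AT3G55410 and AT4G26910, subunits of the 2-oxoglutarate dehydrogenase complex, rose as well. AT3G55410 averaged 10.29 ± 0.10 at 8 h and 9.71 ± 0.10 at 1.5 h (adjusted p = 0.0014). AT4G26910 averaged 11.04 ± 0.02 at 8 h and 10.68 ± 0.06 at 1.5 h (adjusted p = 0.00125). IDH-VI, an isocitrate dehydrogenase subunit, averaged 10.87 ± 0.04 at 8 h and 10.52 ± 0.07 at 1.5 h (adjusted p = 0.000919). For these 4 genes the samples of the times did not overlap. ACLB-1, an ATP-citrate lyase subunit that uses citrate outside the cycle, was named after its value was seen, to complete the count, and averaged 10.05 ± 0.01 at 8 h and 10.29 ± 0.07 at 1.5 h (-0.24 ± 0.06, adjusted p = 0.0188). ACLB-1 kept its call in 9 of 14 alternative settings (adjusted p 0.00644 to 0.08) and lost it without 8 h replicate 2 or 1.5 h replicates 1 or 3 and with only the groups compared in the fit or samples centred on their medians.

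Autophagy genes had 4 of 11 measured members higher and 0 lower at 8 h (median 0.23 log2), against 5.81% higher over all probe sets. All 4 encode ATG8 proteins, which coat the autophagosome membrane, as do 9 of the 11 measured. ATG8H was at 9.89, 9.82 and 9.82 at 8 h, against 9.01, 9.09 and 9.20 at 1.5 h (0.74 ± 0.08, adjusted p = 1.87e-05), and ATG8D was at 8.98, 8.84 and 8.95 at 8 h, against 8.28, 8.14 and 8.13 at 1.5 h (0.74 ± 0.08, adjusted p = 1.97e-05). Their times did not overlap. ATG8E and ATG8F differed by 0.53 and 0.24 (adjusted p = 0.0152 and 0.0381). ATG8E kept its call in 12 of 14 alternative settings (adjusted p 0.00152 to 0.0689) and lost it without 8 h replicate 3 or 1.5 h replicate 1. ATG8F kept its call in 7 of 14 alternative settings (adjusted p 0.0168 to 0.168) and lost it without 8 h replicates 1 or 3 or 1.5 h replicates 1, 2 or 3 and with the hypoxia level as covariate or only the groups compared in the fit. Without 8 h replicate 3 or 1.5 h replicate 1, 2 of the 11 were called higher.

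The 16 measured members of the sugar transporter list were all of the SWEET family. Of these 16, 1 rose and 2 fell (median 0.09 log2), against 5.81% higher and 6.05% lower over all probe sets. SWEET14 and SWEET13, sucrose exporters, both fell, SWEET13 after a rise by 1.5 h and SWEET14 with no call at 1.5 h. SWEET14 was at 5.97, 5.57 and 5.37 at 8 h, against 7.60, 7.79 and 7.87 at 1.5 h (-2.12 ± 0.18, adjusted p = 1.02e-06). SWEET13 was at 8.11, 7.71 and 8.11 at 8 h, against 8.99, 9.02 and 8.95 at 1.5 h (-1.01 ± 0.13, adjusted p = 7.47e-05). SAG29, of the same family, averaged 5.58 ± 0.10 at 8 h and 5.26 ± 0.10 at 1.5 h (0.32 ± 0.10, adjusted p = 0.039). SAG29 kept its call in 8 of 14 alternative settings (adjusted p 0.0174 to 0.156) and lost it without 8 h replicates 2 or 3 or 1.5 h replicates 1 or 2 and with the hypoxia level as covariate or a variance trend.

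Genes of ribosome biogenesis had 5 of 11 measured members lower and 0 higher at 8 h, where 6.05% of all probe sets were lower. Their median was -0.28 log2, against 0.02 log2 over all probe sets. AT3G12860, similar to the nucleolar protein NOP56, was at 7.69, 8.01 and 7.89 at 8 h, against 8.59, 8.51 and 8.52 at 1.5 h (-0.68 ± 0.09, adjusted p = 7.51e-05). AT5G66540 and AT1G80750 fell, with differences of -0.47 and -0.41 (adjusted p = 0.00218 and 0.00593). AT3G22660, similar to the rRNA processing protein EBP2, fell, with a difference of -0.35 (adjusted p = 0.0171), and AT5G08420, named after its value was seen, with a difference of -0.24 (adjusted p = 0.0304). AT3G22660 kept its call in 11 of 14 alternative settings (adjusted p 0.0025 to 0.0629) and lost it without 8 h replicate 1 or 1.5 h replicates 1 or 2. AT5G08420 kept its call in 6 of 14 alternative settings (adjusted p 0.0109 to 0.111) and lost it without 8 h replicates 1, 2 or 3 or 1.5 h replicates 1, 2 or 3 and with the hypoxia level as covariate or samples centred on their medians. Without nitrate 8 h replicate 1, 3 of the 11 were called lower, and 8 were where limma's variance trend with robust estimation was used. At 1.5 h, 0 of the 11 were called by limma against the roots before supply (1 at an unadjusted p under 0.05). In that comparison 5.97% of all probe sets were called higher and 7.29% lower, so 0 of 11 lies near these shares. Of core histones 2 of 5 fell and 0 rose (median -0.26 log2), HTB1 with a difference of -0.35 (adjusted p = 0.00293) and HTR12, the centromeric histone H3, with a difference of -0.32 (adjusted p = 0.0112). HTR12 kept its call in 11 of 14 alternative settings (adjusted p 0.00251 to 0.0652) and lost it without 8 h replicate 2 or 1.5 h replicate 1 and with only the groups compared in the fit.

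CC-type glutaredoxins, small redox proteins some of which relay nitrogen signals, had 4 of 17 measured members lower and 0 higher (median -0.04 log2). Over all probe sets 6.05% were lower and 5.81% higher. At both times 9 of the 17 averaged under 5 log2. The higher calls numbered 2 without 8 h replicate 3, with array weights, with a variance trend or with samples centred on their medians. They numbered 1 without 1.5 h replicate 2, with a replicate block or with only the groups compared in the fit. AT5G11930 averaged 8.15 before supply, 6.64 at 1.5 h and 5.56 at 8 h (-1.09 ± 0.10, adjusted p = 1.71e-06). AT4G33040 averaged 8.85 before supply, 7.003 at 1.5 h and 5.97 at 8 h (-1.03 ± 0.11, adjusted p = 1.65e-05). Both fell in each interval, whereas ROXY2 averaged 6.06 before supply, 8.06 at 1.5 h and 7.32 at 8 h (-0.74 ± 0.14, adjusted p = 0.00183) and was a fading rise. AT1G06830, known as CEPD1 and a shoot-to-root signal of nitrogen demand, averaged 5.94 ± 0.29 at 8 h and 6.71 ± 0.21 at 1.5 h (-0.76 ± 0.21, adjusted p = 0.0233). AT1G06830 kept its call in 10 of 14 alternative settings (adjusted p 0.00795 to 0.106) and lost it without 8 h replicates 1 or 3 or 1.5 h replicates 2 or 3.

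Tau class glutathione S-transferases, which attach glutathione to reactive compounds, had 3 of 11 measured members lower and 1 higher (median -0.19 log2). With array weights 5 of the 11 were lower. Over all probe sets 6.05% were lower and 5.81% higher. GSTU23 was at 6.35, 6.49 and 6.23 at 8 h, against 7.27, 7.45 and 7.37 at 1.5 h (-1.01 ± 0.09, adjusted p = 1.21e-06), and GSTU22 was at 6.81, 6.85 and 6.81 at 8 h, against 7.63, 7.54 and 8.10 at 1.5 h (-0.93 ± 0.11, adjusted p = 2.54e-05). GSTU21 and GSTU26 differed by -0.58 and 0.38 (adjusted p = 0.0187 and 0.0401), and the values of GSTU21 overlapped between the times. GSTU21 kept its call in 10 of 14 alternative settings (adjusted p 0.000802 to 0.0982) and lost it without 8 h replicates 2 or 3 or 1.5 h replicate 2 and with only the groups compared in the fit. GSTU26 kept its call in 7 of 14 alternative settings (adjusted p 0.00729 to 0.144) and lost it without 8 h replicates 1, 2 or 3 or 1.5 h replicates 1, 2 or 3 and with the hypoxia level as covariate. The 1 measured phi class member, GSTF4, was not called (-0.20 ± 0.07, adjusted p = 0.0793). The family members lie in gene clusters with similar sequence, so that probe sets may share signal between relatives.

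Of genes of flavonoid synthesis, which makes pigments and UV screens, 3 of 6 measured members fell and 0 rose (median -0.26 log2). Over all probe sets 6.05% fell and 5.81% rose. CHIL, a chalcone isomerase-like protein, averaged 7.52 before supply, 6.81 at 1.5 h and 5.59 at 8 h (-1.22 ± 0.17, adjusted p = 0.000181). UGT78D2 and UGT78D1, which add sugars to flavonols, differed by -0.89 and -0.46 (adjusted p = 0.00692 and 0.0116), and UGT78D1 averaged under 5 log2 at both times. UGT78D1 kept its call in 12 of 13 alternative settings (adjusted p 0.00363 to 0.0635) and lost it without 1.5 h replicate 2. The wider family of UDP-glycosyltransferases had 8 of 51 measured members lower and 2 higher, beside the same shares over all probe sets. Their median was 0.01 log2, which changed sign to -0.02 log2 after a second quantile normalization. At both times 20 of the 51 averaged under 5 log2. The higher calls numbered 0 without 1.5 h replicate 1 and 1 without 1.5 h replicate 3 or 8 h replicate 2. They also numbered 1 with a second quantile normalization, the low-level filter, a replicate block, a variance trend or only the groups compared in the fit. Among the 8 lower members UGT73D1 was at 6.49, 6.38 and 5.98 at 8 h, against 7.23, 7.43 and 7.19 at 1.5 h (-0.998 ± 0.17, adjusted p = 0.000732). UGT71C1 fell, with a difference of -0.31 (adjusted p = 0.00311). UGT76C1 and UGT76C2, which inactivate cytokinins by adding glucose, fell, with differences of -0.36 and -0.40 (adjusted p = 0.00464 and 0.00673).

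Cell wall genes moved both ways, where 5.81% of all probe sets rose and 6.05% fell. Of expansins, which loosen cell walls, 3 of 19 measured members rose and 2 fell (median 0.06 log2). EXLB1 was at 9.14, 8.51 and 8.72 at 8 h, against 9.90, 9.53 and 9.58 at 1.5 h (-0.88 ± 0.14, adjusted p = 0.000574), and EXPB2 was at 6.73, 7.20 and 6.81 at 8 h, against 6.14, 6.15 and 6.14 at 1.5 h (0.77 ± 0.14, adjusted p = 0.00129). EXPA16, under 5 log2 at both times, EXPB1 and EXLA3 differed by 0.42, -0.42 and 0.76 (adjusted p = 0.0115, 0.0257 and 0.0327), and EXLA3 was named after its value was seen. EXPA16 kept its call in 12 of 13 alternative settings (adjusted p 0.0016 to 0.0537) and lost it without 8 h replicate 2. EXPB1 kept its call in 9 of 14 alternative settings (adjusted p 0.00838 to 0.112) and lost it without 8 h replicates 1 or 3 or 1.5 h replicates 1 or 3 and with samples centred on their medians. EXLA3 kept its call in 9 of 14 alternative settings (adjusted p 0.00142 to 0.145) and lost it without 8 h replicates 1 or 2 or 1.5 h replicates 1 or 3 and with only the groups compared in the fit. Of xyloglucan endotransglucosylases 2 of 10 rose and 2 fell (median 0.01 log2, and -0.01 log2 after a second quantile normalization). Besides XTH16, XTH26 fell, with a difference of -0.76 (adjusted p = 5.61e-05), and XTH21 and XTH33 differed by -0.37 and 0.36 (adjusted p = 0.019 and 0.0313). XTH21 kept its call in 10 of 14 alternative settings (adjusted p 0.0116 to 0.0844) and lost it without 8 h replicates 1 or 2 or 1.5 h replicates 1 or 3. XTH33 kept its call in 8 of 14 alternative settings (adjusted p 0.00656 to 0.152) and lost it without 8 h replicates 2 or 3 or 1.5 h replicates 2 or 3 and with the hypoxia level as covariate or only the groups compared in the fit.

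**Figure D3:**
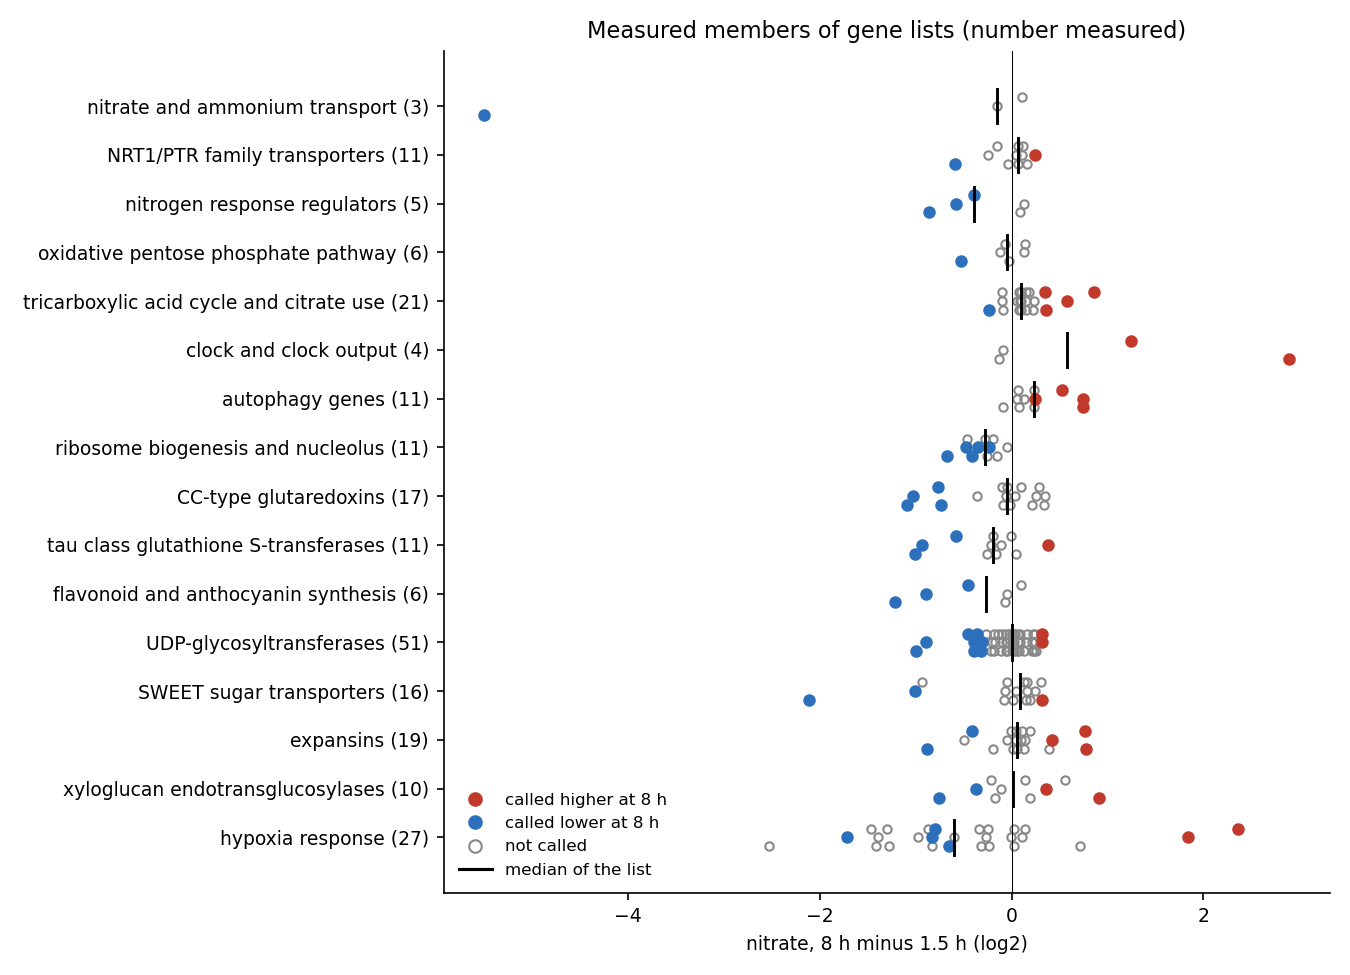
Difference between 8 h and 1.5 h of nitrate (log2, x axis) of each measured member of 16 gene lists (y axis, number measured in brackets), filled where called, with a bar at the list's median. All 4 called autophagy genes lie right of 0 and all 5 called ribosome biogenesis genes lie left of it, while NRT2.5 stands alone at -5.51.

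Hormone and signalling lists were short and held 1 or 2 called members each, where 11.9% of all probe sets were called. Of Aux/IAA repressors of auxin responses 2 of 7 fell and 0 rose, IAA33 with a difference of -0.65 (adjusted p = 0.00367) and IAA18 with a difference of -0.30 (adjusted p = 0.0268). IAA18 kept its call in 7 of 14 alternative settings (adjusted p 0.00234 to 0.133) and lost it without 8 h replicates 2 or 3 or 1.5 h replicates 2 or 3 and with the hypoxia level as covariate, only the groups compared in the fit or samples centred on their medians. WES1 (GH3.5), which conjugates auxin to amino acids, was at 8.28, 8.24 and 8.21 at 8 h, against 8.75, 8.78 and 8.73 at 1.5 h (-0.51 ± 0.06, adjusted p = 4.81e-05) and was the 1 called member of 5 GH3 genes. The lower GH3 calls numbered 2 without 1.5 h replicate 1, with array weights, with a variance trend, with the low-level filter or with only the groups compared in the fit. Calmodulin-like calcium sensors had 2 of 8 members higher and 0 lower, CML43 by 0.62 (adjusted p = 6.27e-05) and CML30 by 0.44 (adjusted p = 0.01). CML30 kept its call in 13 of 14 alternative settings (adjusted p 0.00312 to 0.0527) and lost it without 8 h replicate 3. Of the CLE and CEP peptides 1 of 5 fell, CLE26, with a difference of -0.37 (adjusted p = 0.0119). CLE26 kept its call in 12 of 14 alternative settings (adjusted p 0.00685 to 0.0691) and lost it without 8 h replicate 3 or 1.5 h replicate 2. The lower calls of that list numbered 2 without 8 h replicate 1, with the low-level filter, with a replicate block or with a variance trend. They numbered 3 with array weights or with only the groups compared in the fit, and 0 without 8 h replicate 3 or 1.5 h replicate 2. NAC014, the 1 measured NAC factor, fell, with a difference of -0.50 (adjusted p = 0.00203).

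The remaining lists held 1 or 2 called members or none, where 11.9% of all probe sets were called. RR16, a response regulator of cytokinin signalling, was called with both means under 5 log2, 3.73 ± 0.19 at 8 h and 3.31 ± 0.10 at 1.5 h (0.42 ± 0.09, adjusted p = 0.00681). Of cytochrome P450 genes 2 of 23 rose, against 5.81% over all probe sets, and 13 of the 23 averaged under 5 log2 at both times. CYP71B34 rose by 0.74 and CYP71B26 by 0.64 (adjusted p = 0.000763 and 0.00889). The higher calls numbered 4 with array weights or with only the groups compared in the fit, and 1 without 1.5 h replicate 1. A lower call, 1 of the 23, appeared with array weights, with the low-level filter or without 8 h replicate 1. CYP71B26 kept its call in 13 of 14 alternative settings (adjusted p 0.00221 to 0.0507) and lost it without 1.5 h replicate 1. SIR, sulfite reductase, was the 1 called of 6 sulfur genes, at 10.66 ± 0.09 at 8 h and 10.37 ± 0.07 at 1.5 h (0.29 ± 0.08, adjusted p = 0.0213). SIR kept its call in 12 of 14 alternative settings (adjusted p 0.00505 to 0.105) and lost it without 8 h replicate 2 or 1.5 h replicate 1. AT1G74770, the BRUTUS-like regulator of iron responses, was the 1 called of 6 iron genes, higher by 0.38 (adjusted p = 0.00425). Without 8 h replicate 1 or with array weights, 1 sulfur gene and 1 iron gene were also called lower. PYK10 and AT2G21045, an arsenate reductase, were called higher in the root marker list, by 0.39 and 0.40 (adjusted p = 0.00329 and 0.00482). Of 7 WRKY factors, 2 LBD genes, 2 ribosomal protein genes, and the single measured bHLH, heat shock and sugar starvation genes, 0 were called by limma. At an unadjusted p under 0.05 LBD29 and BHLH101 passed. The members with the smallest p were WRKY6, LBD29, AT1G77750, BHLH101, ATHSP22.0 and AT3G49790, with differences of 0.26, 0.27, 0.10, -0.33, 0.12 and -0.13, and RCA led the green tissue markers with -0.28 (adjusted p = 0.0853).

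Genes of the hypoxia response, which plant cells switch on when oxygen runs short, varied among samples of the same group. The mean level of 27 measured members was 8.30, 7.14 and 7.43 at 8 h, against 8.29, 8.77 and 7.23 at 1.5 h (replicates 1 to 3), so the times overlapped. The median difference was -0.60 log2, with 2 of 27 higher and 4 lower, against 5.81% and 6.05% over all probe sets. The lower calls numbered 12 without nitrate 1.5 h replicate 3 and 8 without nitrate 8 h replicate 1. They numbered 2 without 1.5 h replicate 1, with only the groups compared in the fit or with a variance trend. They numbered 1 without 1.5 h replicate 2, 8 h replicate 2 or 8 h replicate 3. With the list's own level as a covariate, which these genes themselves make up, the lower calls numbered 8. The higher calls numbered 1 without 1.5 h replicate 3. AT4G39675 was at 12.18, 11.98 and 12.23 at 8 h, against 10.57, 10.12 and 8.60 at 1.5 h (2.37 ± 0.57, adjusted p = 0.0113), and AT5G26200 was at 8.89, 8.70 and 8.90 at 8 h, against 6.82, 7.73 and 6.41 at 1.5 h (1.84 ± 0.30, adjusted p = 0.000582). Both were high in all samples at 8 h, including those in which the list as a whole was low, and both were lowest at 1.5 h in replicate 3. AT4G17670 and AT5G47060 fell, with differences of -0.83 and -0.65 (adjusted p = 0.00143 and 0.0165). AT3G10040 (HRA1, an attenuator of the hypoxia response) and AT5G66985, named after their values were seen, differed by -1.72 and -0.80 (adjusted p = 0.0471 and 0.0274), and their values overlapped between the times. AT4G39675 kept its call in 13 of 14 alternative settings (adjusted p 0.00306 to 0.0638) and lost it without 1.5 h replicate 3. AT5G47060 kept its call in 11 of 14 alternative settings (adjusted p 0.00235 to 0.0876) and lost it without 8 h replicates 2 or 3 or 1.5 h replicate 2. AT3G10040 kept its call in 6 of 14 alternative settings (adjusted p 0.000102 to 0.217). It lost the call without 8 h replicates 2 or 3 or 1.5 h replicates 1 or 2. The call was also lost with array weights, a replicate block, only the groups compared in the fit or a variance trend. AT5G66985 kept its call in 8 of 14 alternative settings (adjusted p 0.00302 to 0.139) and lost it without 8 h replicates 2 or 3 or 1.5 h replicates 1 or 2 and with only the groups compared in the fit or a variance trend. With the list's level as a covariate 2463 probe sets were called between the times, of which 2293 were among the 2697, and the part of this variation in other results was not tested further.

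**Figure D4:**
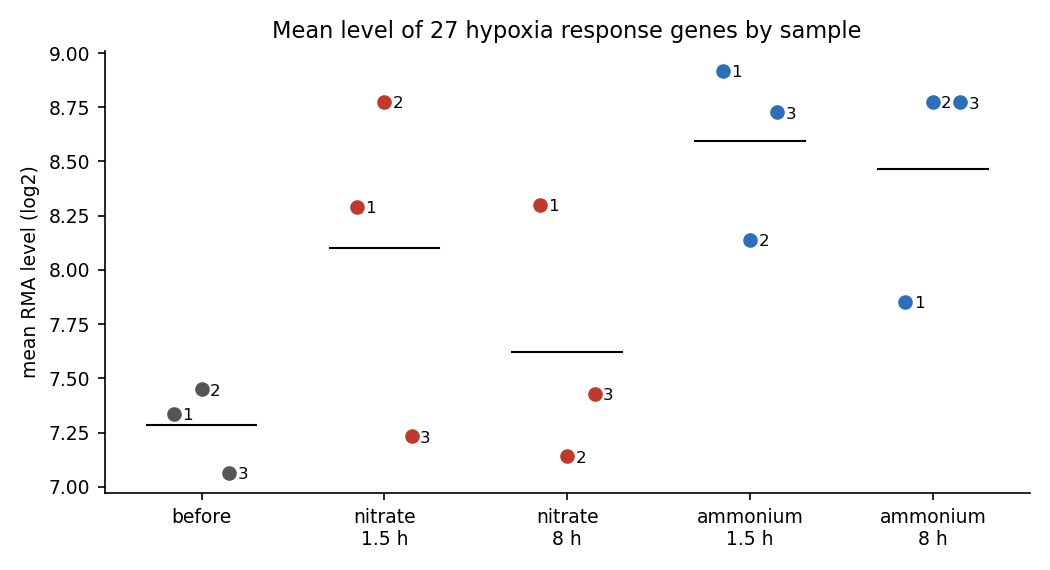
Mean RMA level (log2, y axis) of 27 hypoxia response genes in each sample, labelled by replicate number, with a bar at each group mean. The 3 samples at 8 h of nitrate reach from 7.14 to 8.30 and those at 1.5 h from 7.23 to 8.77.

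The same times were compared in roots given ammonium, which are other samples. There, 1324 probe sets were called higher (5.82%) and 1282 lower (5.64%) at 8 h. With samples centred on their medians the called split was 39.7% higher in place of 50.8%. Of the 1322 probe sets higher with nitrate, 440 (33.3%) were also called higher with ammonium and 60 were called lower. Of the 1375 lower with nitrate, 478 (34.8%) were also called lower with ammonium and 43 were called higher. Among changes of at least 2-fold the share was 52 of 90 (57.8%) for rises and 103 of 147 (70.1%) for falls. Across all probe sets the differences with nitrate and with ammonium had r = 0.43 and rho = 0.21, a description, since probe sets are not independent.

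Several leading genes changed with both ions. COR27 differed by 2.90 with nitrate and 2.67 with ammonium, AT5G15950 by -2.49 and -2.18, AT1G56300 by 1.81 and 1.78, and HYH by -1.73 and -1.49. PDF2.1 differed by 3.25 with nitrate and by 4.28 with ammonium. Probe set 257985_at differed by 3.65 with nitrate and by 3.54 with ammonium. For COR27, AT5G15950, AT1G56300, HYH and 257985_at the difference between the ions was not called (adjusted p = 0.562, 0.346, 0.95, 0.696 and 0.845).

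The test of the difference itself, the change with nitrate minus the change with ammonium, called 519 probe sets higher (2.28%) and 504 lower (2.22%). With samples centred on their medians 64.0% were higher in place of 50.7%. It called 273 of the 1322 rises and 326 of the 1375 falls, with nitrate having the more positive change in 268 of the rises and the more negative one in 322 of the falls. The rises and falls were picked by their change with nitrate, which is also part of this test. Their counts and signs here are therefore largely set by that choice and are a description. NRT2.5 fell with both ions, with a change of -5.51 for nitrate and -1.83 for ammonium, and the difference was called (-3.67 ± 0.23, adjusted p = 3.12e-07). In ammonium roots it was at 9.39, 9.26 and 8.88 at 8 h, against 11.01, 11.03 and 10.98 at 1.5 h. OCT1 also fell with both ions, with -3.39 for nitrate and -0.95 for ammonium (difference -2.44 ± 0.31, adjusted p = 0.000373).

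At the positive end, AT1G49500 rose with nitrate (1.63) and fell with ammonium (-1.09 ± 0.12, adjusted p = 4.26e-05). Its difference between the ions was 2.72 ± 0.18, adjusted p = 4.51e-07. AT4G27654, AR781, AT5G01740 and AT3G53770 had differences between the ions of 2.503, 2.53, 2.03 and 1.99 log2, and the last 3 fell with ammonium by the test (-1.70, -0.66 and -1.23). AR781 was at 7.22, 6.07 and 6.08 at 8 h, against 5.61, 6.06 and 5.22 at 1.5 h with nitrate (0.83 ± 0.26, adjusted p = 0.0474). AR781 kept its call in 9 of 14 alternative settings (adjusted p 0.000553 to 0.209) and lost it without 8 h replicate 1 or 1.5 h replicates 1 or 3 and with only the groups compared in the fit or a variance trend. The call of the difference between the ions for AT4G27654 was lost in 12 of 19 alternative settings (adjusted p 0.00305 to 0.114), among them the second quantile normalization and every omission of 1 library except nitrate 8 h replicate 1 or 3 and ammonium 1.5 h replicate 3. At the negative end, AT5G38910 differed by -1.81 with nitrate and 1.43 with ammonium (-3.24 ± 0.51, adjusted p = 0.00178), and AT3G28510 by -1.57 and 1.52 (-3.09 ± 0.47, adjusted p = 0.00149). Both fell with nitrate and rose with ammonium. AT2G30660 had a difference between the ions of -1.84 log2, with 0.51 for ammonium, which was not called.

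**Figure D5:**
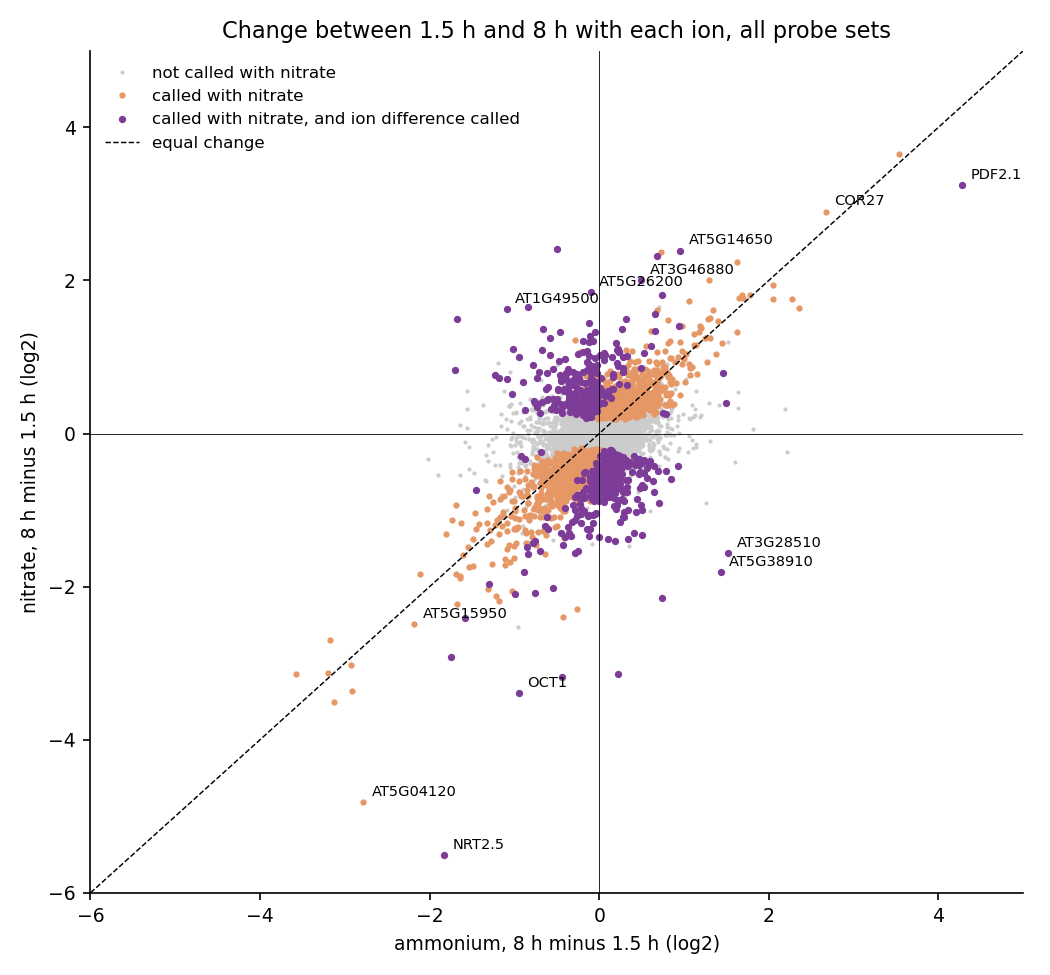
Difference between 8 h and 1.5 h with ammonium (log2, x axis) and with nitrate (log2, y axis) for 22746 probe sets, coloured by the call with nitrate and by the call of the difference between the ions, with a dashed line of equal change. COR27 lies near the dashed line, NRT2.5 lies far below it, and AT1G49500 lies above 0 with nitrate and below 0 with ammonium.

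The listed groups were set side by side for the ions. Over all probe sets 5.82% rose and 5.64% fell with ammonium, and the difference between the ions was called higher in 2.28% and lower in 2.22%. For 11 genes, 0 calls with ammonium lies near those ammonium shares. With ammonium 0 of 11 ribosome biogenesis genes were called by limma between the times (1 at an unadjusted p under 0.05, median 0.01 log2), and the difference between the ions was called lower for 3, among them AT3G12860 (-0.61 ± 0.12, adjusted p = 0.0098) and AT5G66540 (-0.47 ± 0.13, adjusted p = 0.0468). For AT5G66540 that call was lost in 14 of 20 alternative settings (adjusted p 0.0171 to 0.112), among them the second quantile normalization, array weights, median centring and every omission of 1 library except nitrate 8 h replicate 2 and ammonium 1.5 h replicate 2. For ATG8H and ATG8D the changes with ammonium were 0.43 and 0.59, and the difference between the ions was not called (adjusted p = 0.16 and 0.525). The CC-type glutaredoxins AT5G11930 and AT4G33040 fell with nitrate and differed by 0.29 and 0.43 with ammonium (difference between the ions -1.38 ± 0.13, adjusted p = 4.35e-05, and -1.46 ± 0.16, adjusted p = 0.000115). GSTU22 fell with nitrate and rose with ammonium (0.49 ± 0.11, adjusted p = 0.00732). HHO2 and HHO3, not called with nitrate, fell with ammonium. The change was -0.45 ± 0.10, adjusted p = 0.00988 for HHO2 and -0.77 ± 0.12, adjusted p = 0.000488 for HHO3.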

How the data were processed

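Root RNA of 15 samples was measured on ATH1 arrays. The deposited values are log2 expression values, normalized by the authors with RMA, which corrects background, equalises the arrays' distributions and summarises probes; RMA and limma are named in the submitters' processing notes, without a version. Quantile steps of this kind assume that most transcripts do not shift one way. Groups were taken from sample titles. All 22746 probe sets entered 1 limma fit (limma 3.58.1, R 4.3.3) with 5 group means and moderated two-sided tests, with Benjamini-Hochberg adjustment over all probe sets for each of 5 comparisons. Figures were drawn with matplotlib 3.10.9 in Python 3.11.15. The fit was tested on simulated data.

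Of the probe sets, 13513 had 1 gene in the platform annotation, 503 several and 8730 none listed; 13436 were matched to RefSeq genes of TAIR10.1. The names PGD1, PGD3, NRT1.4, HHO1, HHO2 and HHO3 were assigned by locus from a hand-written list. Where probe sets shared a gene (145 genes), lists used the one with the highest mean. The text names the 12 largest rises and 12 largest falls, 4 per class, 5 at each end of the ion difference, and 2 rising and 2 falling unnamed probe sets. All of these were taken from called probe sets without overlap between the times. Added to them were up to 4 called members per list or the member with the smallest p, and key genes. The members and lists were chosen with earlier results of these data known. Of 48 lists, 13 had no measured member, and of 26 key genes 7 were measured. Measured here means named as the only gene of a probe set in the annotation used. The others may be read by probe sets with no listed gene or several. The membership of AT4G24730 (transport), AT1G22750 (clock) and LAS (root markers) is doubtful, and none of them was called. Alternatives were the normalization, scaling, low-level filter, variance model, array weights, replicate block, samples in the fit and leaving out each replicate.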

Additional observations from a re-analysis of the deposited data

Results flagged for a closer look

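For 51 of the 133 named genes and probe sets the change between 8 h and 1.5 h differed between nitrate and ammonium. They were called by the test of that difference (limma, adjusted p below 0.05 over all probe sets). Over all probe sets that test called 2.28% higher and 2.22% lower. Some of the 133 were named for lying at the ends of this difference. Others were named for a large change with nitrate, which is part of the test. The count of 51 is therefore partly set by that choice and is a description. Each value is the change with nitrate minus the change with ammonium on the log2 scale. The change was more positive with nitrate for 258629_at (2.91), AT1G49500 (2.72), AR781 (2.53), AT4G27654 (2.503), AT5G01740 (2.03), AT3G53770 (1.99), AT5G26200 (1.94) and AT3G53820 (1.80). Smaller positive values were those of AT1G52700 (1.63), AT3G46880 (1.51), AT5G14650 (1.44), AT4G31875 (1.43), AT2G41810 (0.99), AT5G44380 (0.90), HHO3 (0.86) and EXPA16 (0.76). The series ended on the positive side with ROXY2 (0.72), XTH16 (0.70), HHO2 (0.58), SDH1-2 (0.58) and XTH33 (0.57).

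The change was more negative with nitrate for NRT2.5 (-3.67), AT5G38910 (-3.24), AT3G28510 (-3.09), OCT1 (-2.44), AT2G30660 (-1.84), AT5G49870 (-1.60), AT1G22160 (-1.47) and AT4G33040 (-1.46). Next came GSTU22 (-1.42), AT5G11930 (-1.38), UGT73D1 (-1.34), AT1G24575 (-1.28), GSTU21 (-1.14), EXLB1 (-1.11), AT1G11700 (-1.10) and PDF2.1 (-1.03). Values nearer 0 were those of AT4G18280 (-0.92), EXPB1 (-0.89), AT4G36610 (-0.83), LTI30 (-0.82), AT4G17670 (-0.81), AT4G37180 (-0.77), AT3G53980 (-0.73) and AT3G12860 (-0.61). The negative side ended with NAC014 (-0.52), AT1G78990 (-0.48), AT5G66540 (-0.47), GI (-0.45), UGT71C1 (-0.35) and WES1 (-0.34).

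Of these 51, 37 kept the call in every alternative setting. The 14 that lost it, each in 4 to 14 of 19 or 20 alternatives, were PDF2.1, AT4G18280, AT4G27654, AT2G41810, AT1G78990, AT4G17670, ROXY2, AT5G66540, UGT71C1, XTH33, WES1, NAC014, HHO2 and GI.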

How the results depend on the processing

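The direction of the 133 named genes and probe sets kept its sign under every alternative run. Of 121 that were called, 90 kept the call in every alternative and 31 lost it in at least 1; of 12 not called, RCA, GSTF4 and BHLH101 gained one. The count of 2697 called probe sets became 2715 after a second quantile normalization, 2671 with samples centred on their medians, 2924 without probe sets averaging under 5 log2, 2865 with a variance trend and robust estimation, 3650 with array weights and 2547 with only the groups compared in the fit. With the hypoxia list's level as a covariate, chosen after seeing the data, it was 2463. Same-numbered nitrate samples had deviations correlated at 0.369, -0.00676 and 0.243, so the numbers were not taken to pair them; with a replicate block 2989 probe sets were called, 2653 of them shared with the 2697, and AT3G10040 lost its call (adjusted p = 0.0518).

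Array weights moved the counts for the ion difference to 1607, for 1.5 h against before supply to 6061, for 8 h against before supply to 7177, for continuing rises to 299, for recovering falls to 620, for fading rises to 618 and for continuing falls to 335. In that fit the samples before supply had weights of 0.252, 0.6276 and 7.639 (replicates 1 to 3), so replicate 3 made up most of their mean. The samples of the other groups had weights of 0.5655 to 1.573. With only the groups compared in the fit, recovering falls numbered 178. The cause was not tested. Leaving out 1 replicate gave 1970 to 2277 calls, 226 to 254 of at least 2-fold, 1766 to 2080 for ammonium, 690 to 885 for the ion difference, 2227 to 2898 for 1.5 h and 3845 to 4518 for 8 h against before supply. By class it gave 562 to 1049 late rises, 136 to 198 continuing rises, 159 to 296 recovering falls, 250 to 372 fading rises, 688 to 1050 late falls and 113 to 177 continuing falls.

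With 3 arrays a group and no detection call, changes of probe sets near background are the least certain, and 6875 probe sets averaged under 5 log2 at both times.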
